A study of Homo sapiens with 12 samples.

Results

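Ribosomal protein genes encode the proteins that, with ribosomal RNA, build the ribosome. They were taken by gene symbol: RPL or RPS followed by a digit, RPLP and RPSA for the cytosolic ribosome, and MRPL or MRPS followed by a digit for the mitochondrial ribosome. Kinases of the RPS6K family, RPS27L and pseudogenes were left out. Each gene was read from 1 probe set that lists that gene alone, the one with the highest mean over all arrays. That gave 108 of the 11963 genes measured, of which 57 were cytosolic (36 large-subunit and 21 small-subunit by symbol) and 51 mitochondrial (31 MRPL and 20 MRPS).

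The cells were RCC4, an established line of clear cell renal carcinoma that lacks the VHL tumour suppressor. They received siRNA against YAP (siYAP) or a non-targeting siRNA (siNT) for 2 days. YAP is the transcriptional coactivator that the Hippo kinases restrain. They then received 1 µM erastin, an inhibitor of cystine import that can induce ferroptosis, or DMSO vehicle for 7 hours. The 4 groups were siYAP with erastin, siNT with erastin, siYAP with DMSO and siNT with DMSO, each measured on 3 arrays of biological replicates. All groups came from the same line in serum-containing medium, and every group was transfected. The labels name 1 siRNA treatment against YAP and no rescue. The question was how YAP silencing, erastin and their combination related to gene expression.

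YAP1 signal was 4.68, 6.21 and 4.90 on the siYAP erastin arrays, against 8.47, 8.52 and 8.65 on the siNT erastin arrays (log2 signal). It was 4.18, 4.88 and 4.81 on the siYAP DMSO arrays, against 8.55, 8.59 and 8.47 on the siNT DMSO arrays. The silenced groups lay below the control groups on every array, and siYAP erastin replicate 2 had the highest signal among the silenced arrays. Renal carcinoma markers (10 genes) had a median level of 10.4, though LRP2, of the same list, averaged 2.85. Of the 10, 7 passed the test in each silencing comparison, 5 higher and 2 lower in siYAP. Among all genes 34.9% passed under erastin and 33.7% in DMSO. CA12 rose, with a log2 change of 1.25 under erastin and 1.04 in DMSO. KRT18 had lower means in siYAP, 10.05 against 10.50 under erastin and 10.14 against 10.49 in DMSO. The part of these markers in the results below was not tested. Endothelial, fibroblast and immune markers (5 genes each) had lower median levels of 4.33, 4.61 and 4.16. The fibroblast marker COL1A1, however, averaged 7.51, above the array medians of 6.49 to 6.52. Of those last 3 lists, no gene passed the test in any comparison. Because RNA was taken from whole cultures, fewer cells of a type and less RNA per cell cannot be told apart. Since the arrays were scaled to each other, they do not show a change in the total RNA of a cell.

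The cytosolic ribosome translates the messenger RNAs made in the nucleus. The mitochondrial ribosome translates the few messages of the mitochondrial genome, all of them for subunits of oxidative phosphorylation, and its own proteins are nuclear-encoded and imported. Most cytosolic ribosomal protein messages begin with a C followed by a run of pyrimidines, the 5′ terminal oligopyrimidine (TOP) motif, through which LARP1 and mTORC1 act on their translation and stability.

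The sequence around the start site differed in most members between both families, with exceptions in each. It is shown for members to which the results below return. Each line covers 10 bases before the annotated RefSeq start (GRCh38.p14) and 15 from it, and capitals mark an uninterrupted pyrimidine run that opens with C at the start base.
RPS6, chr9:19380222-19380246, minus strand: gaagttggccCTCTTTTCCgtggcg
RPL22, chr1:6199581-6199605, minus strand: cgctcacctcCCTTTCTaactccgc
RPL31, chr2:101002279-101002303, plus strand: ccttcgcgctCTTCCTTTCCaactt
RPL39, chrX:119791616-119791640, minus strand: ccgccagcttCCCTCCTCTTCCTTT
RPS28, chr19:8321486-8321510, plus strand: gaagcacgtgactcctctccgccag
MRPL34, chr19:17292563-17292587, plus strand: cggcccgcccaggtggtctgcgctg
MRPL18, chr6:159789802-159789826, plus strand: atgttggaccgctgggaagaggttg
MRPL49, chr11:65122173-65122197, plus strand: gtgtcacgtcactgctgagcgaccg
MRPS31, chr13:40771176-40771200, minus strand: ggacgtgtttggcagcgggacgcac

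RPL39 had the longest such run among the members, 19 bases, of which the line shows the part inside the window. RPS28 opened with A at the annotated base and had no run there, but a pyrimidine run that opens with C began at the next base. The mitochondrial members shown had no run at the start base. A start of C followed by at least 4 pyrimidines was found in 33 of the 49 cytosolic members with a RefSeq promoter (67.3%), in 3 of 45 mitochondrial members (6.67%) and in 4.6% of the 15843 protein-coding genes with one. Allowing the run to begin within 5 bases on either side of the start gave 83.7%, 17.8% and 22.1%. Annotated starts can differ from those used in RCC4 cells.

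The promoters, 250 bases before to 50 from the start, were also searched on both strands for 5 short motifs. None of the motifs searched contains another. CCGGAAG, the core bound by ETS factors such as GABPA, was found in 34.7% of cytosolic, 40.0% of mitochondrial and 14.2% of all protein-coding promoters. AAGATGG, letters typical of YY1 sites, was found in 5 of 49 cytosolic promoters (10.2%), 15 of 45 mitochondrial promoters (33.3%) and 6.4% of all. The TATAAA box stood in 8.16%, 2.22% and 9.63%, the E-box CACGTG in 4.08%, 6.67% and 8.88%, and TGCGCA, the arm of the NRF1 palindrome, in 18.4%, 22.2% and 10.8%. A match describes letters in a window and not a bound site.

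The mean signal of each set differed little between groups. Over the 57 cytosolic members the mean log2 signal was 12.735 ± 0.010 in siYAP erastin, 12.705 ± 0.044 in siNT erastin, 12.708 ± 0.022 in siYAP DMSO and 12.701 ± 0.056 in siNT DMSO (SD, n = 3 arrays each). These groups overlapped. Over the 51 mitochondrial members it was 10.134 ± 0.021 in siYAP erastin, 10.012 ± 0.040 in siNT erastin, 10.081 ± 0.016 in siYAP DMSO and 10.045 ± 0.074 in siNT DMSO. Every siYAP erastin array lay above every siNT erastin array and every siYAP DMSO array for the mitochondrial set. Within the siNT arrays, DMSO replicate 3 was the highest in both sets. Erastin replicate 3 was the lowest in the mitochondrial set and stood level with DMSO replicate 2 at the low end of the cytosolic set, both at 12.655.

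**Figure D1:**
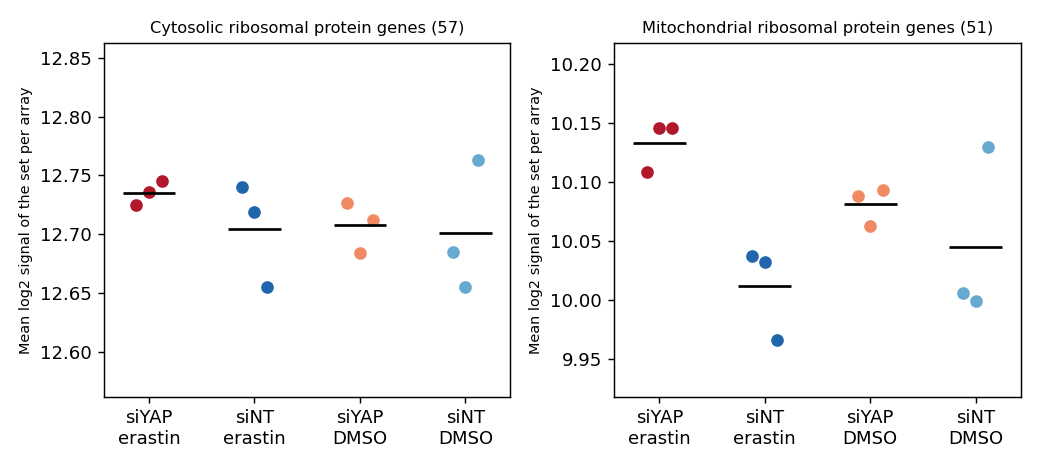
Mean log2 signal of the cytosolic (left) and mitochondrial (right) ribosomal protein genes on each array (points), with the group mean (bar), for siYAP erastin, siNT erastin, siYAP DMSO and siNT DMSO. The siYAP erastin arrays, at 10.109 to 10.146, lie above the siNT erastin arrays, at 9.966 to 10.037, for the mitochondrial set, while all groups overlap for the cytosolic set; both axes are cut and do not start at 0.

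YAP silencing in DMSO left the cytosolic set almost without calls. In limma's fit over all 11963 genes, with Benjamini-Hochberg adjustment and a call at an adjusted p under 0.05, 33.7% of all genes passed (18.1% higher and 15.6% lower in siYAP). Of the 57 cytosolic members 0 rose and 1 fell (1.75%), and 2 had an unadjusted p under 0.05, against 40.9% of all genes. The median log2 change of the set was 0.01, against 0.02 over all genes, and 33 members had a positive value. Leaving out 1 array moved that median between -0.012, without siNT DMSO replicate 2, and 0.034, without siNT DMSO replicate 3, so it has no settled sign. The 95% interval of the change lay within ±0.25 for 51 of the 57 members and within ±0.5 for 54. The median standard error was 0.050 in the set and 0.078 over all genes.

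The cytosolic probe sets read close to the top of the scale, where an array's response is compressed and a true change can appear smaller. Their median level was 13.39 and 50 of 57 averaged at least 12, while the highest value in the table was 14.4. Among 330 other genes with a mean of at least 12, a limit chosen after the values were seen, 38.8% passed the test in this comparison. Those genes were not matched to the members in level, and 42 of the 57 members averaged at least 13. The part of compression in the cytosolic result was not tested.

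RPL39L was the cytosolic member that fell. It is a paralogue of RPL39 that is known in mouse for its role in sperm formation, and RPL39 itself lines the peptide exit tunnel. Its log2 signal was 7.16, 6.95 and 6.94 in siYAP DMSO, against 7.39, 7.48 and 7.63 in siNT DMSO. The groups did not overlap, and the log2 change was -0.48 ± 0.09 (SE; limma adjusted p = 0.000739), a 1.39-fold lower level. Under erastin the values were 7.16, 7.30 and 7.37 in siYAP, against 7.47, 7.32 and 7.47 in siNT. Those groups overlapped, with a change of -0.14 (95% interval -0.33 to 0.05; limma adjusted p = 0.246). RPL39, with the long pyrimidine run shown above, read between 13.97 and 14.09 on all arrays.

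The other paralogues gave no call. RPL26L1, RPL36AL, RPL3L, RPL10L and the Y-linked copy of RPS4X were measured, and without the paralogues 0 of 51 cytosolic members passed the test in DMSO. RPL3L, RPL10L and that Y-linked copy averaged 4.64, 5.89 and 5.55 over all arrays, below the array medians. At such levels a missing call says little about a change. Among the other members, RPS6, the small-subunit substrate of the S6 kinases, read 13.17, 13.09 and 13.14 in siYAP DMSO, against 13.17, 13.12 and 13.22 in siNT DMSO (change -0.03, limma adjusted p = 0.691). Its values in siYAP erastin were 13.15, 13.23 and 13.18, against 13.16, 13.26 and 13.21 in siNT erastin (-0.02, limma adjusted p = 0.807). All 4 groups overlapped. RPS4X changed by -0.03 in DMSO and 0.02 under erastin (limma adjusted p = 0.679 and 0.83). RPLP2, an acidic stalk protein, had the largest positive value, 0.30 under erastin, but with an interval of -0.09 to 0.68 (limma adjusted p = 0.234). That value rested on siNT erastin replicate 3, at 7.44, against 8.30 and 8.14 on the other arrays of its group.

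YAP silencing under erastin gave the same picture for the cytosolic set. Of the 57 members 0 passed, against 34.9% of all genes (20.0% higher and 14.8% lower in siYAP) and 43.0% of the 330 other bright genes. At an unadjusted p under 0.05 there was 1 member, against 42.2% of all genes. The median log2 change was 0.02, against 0.01 over all genes (0.034 without siNT erastin replicate 1 and 0.011 without siNT erastin replicate 3), and the values ran from -0.14 (RPL39L) to 0.30 (RPLP2). The 95% interval lay within ±0.25 for 51 members and within ±0.5 for 55. These intervals allow changes of the sizes just named and do not show that the genes stayed the same.

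**Figure D2:**
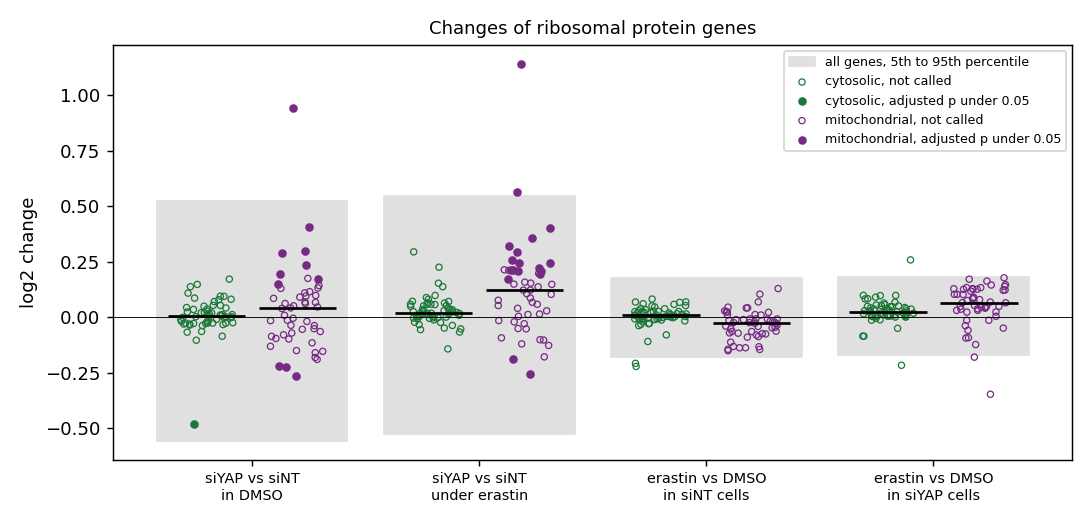
Log2 change of each cytosolic (green) and mitochondrial (purple) member in the 4 comparisons, with filled points for an adjusted p under 0.05, black bars for set medians and grey bands for the 5th to 95th percentile of all genes. Filled points are 1 cytosolic and 11 mitochondrial genes for siYAP against siNT in DMSO, and 0 and 18 under erastin, with none for erastin against DMSO.

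More mitochondrial members were called higher than lower in silenced cells. In DMSO 8 rose and 3 fell in siYAP relative to siNT, 11 of 51 (21.6%), against 33.7% of all genes. Under erastin 16 rose and 2 fell, 18 of 51 (35.3%), against 34.9% of all genes. So the share of mitochondrial members that passed was below the share of all genes in DMSO and close to it under erastin. The direction was uneven under erastin: 31.4% of the members rose, against 20.0% of all genes, while 2 of 51 fell, against 14.8% of all genes. Their median log2 change was 0.12, against 0.01 over all genes, and 38 of 51 were positive. In DMSO the median was 0.04, against 0.02 over all genes, with 27 of 51 positive. The erastin median was 0.080 without siNT erastin replicate 3. The DMSO median ran from 0.012 without siNT DMSO replicate 2 to 0.063 without siNT DMSO replicate 3, and was 0.015 to 0.026 without siNT DMSO replicate 1 or any 1 of the siYAP DMSO arrays. MRPL genes gave 9 calls of 31 in DMSO and 12 under erastin, and MRPS genes 2 of 20 and 6.

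The counts depended on single arrays. The DMSO count was 7 without siNT DMSO replicate 1, 7 without siNT DMSO replicate 2, 7 without siYAP DMSO replicate 1 and 6 without siYAP DMSO replicate 2. The erastin count was 11 without siYAP erastin replicate 2, the silenced array with the most YAP1 signal, and 9 without siYAP erastin replicate 3. A measure of RNA integrity separated the erastin groups for ACTB, while for GAPDH they overlapped. The 3′ minus 5′ difference of the ACTB control probe sets was 3.541 ± 0.179 in siYAP erastin, against 2.262 ± 0.691 in siNT erastin (SD, n = 3 each, log2). It was 2.592 ± 0.955 in siYAP DMSO and 2.677 ± 0.282 in siNT DMSO. The part of these differences in the mitochondrial result was not tested. The mean of the same measure for GAPDH lay between 0.147 and 0.216 in all 4 groups. It was 0.169 ± 0.039 in siYAP erastin and 0.147 ± 0.076 in siNT erastin.

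MRPL34 and MRPL18 rose most, both proteins of the large subunit. MRPL34, the homologue of the bacterial L34 protein, read 10.31, 10.41 and 10.40 in siYAP erastin, against 9.27, 9.24 and 9.18 in siNT erastin. In DMSO it read 10.28, 10.26 and 10.20 in siYAP, against 9.20, 9.20 and 9.51 in siNT. All 6 silenced arrays lay above all 6 control arrays. The log2 change was 1.14 ± 0.08 under erastin (SE, limma adjusted p = 3.35e-07, 2.21-fold) and 0.94 ± 0.08 in DMSO (limma adjusted p = 1.34e-06, 1.92-fold).

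MRPL18, of the L18 family of rRNA-binding proteins, read 11.84, 11.88 and 11.94 in siYAP erastin, against 11.33, 11.36 and 11.27 in siNT erastin. The DMSO values were 11.82, 11.84 and 11.86 in siYAP, against 11.37, 11.37 and 11.55 in siNT. Silenced and control arrays did not overlap, and siNT DMSO replicate 3 was the highest control array. The fold changes were 1.48 under erastin (limma adjusted p = 9.95e-06) and 1.33 in DMSO (limma adjusted p = 0.000151).

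MRPL49 and MRPS31, both without a bacterial counterpart, also rose in both comparisons. MRPL49, of the large subunit, read 10.89, 10.84 and 10.78 in siYAP erastin, against 10.54, 10.54 and 10.35 in siNT erastin, and 10.80, 10.80 and 10.77 in siYAP DMSO, against 10.46, 10.52 and 10.52 in siNT DMSO. MRPS31, of the small subunit, read 10.15, 10.16 and 10.16 in siYAP erastin, against 9.85, 9.70 and 9.72 in siNT erastin, and 10.08, 9.92 and 10.08 in siYAP DMSO, against 9.68, 9.68 and 9.83 in siNT DMSO. For both genes the silenced arrays lay above the controls without overlap. The log2 changes of MRPL49 were 0.36 and 0.29 under erastin and in DMSO (limma adjusted p = 0.00044 and 0.00209), and those of MRPS31 were 0.40 and 0.30 (limma adjusted p = 0.00036 and 0.00319).

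**Figure D3:**
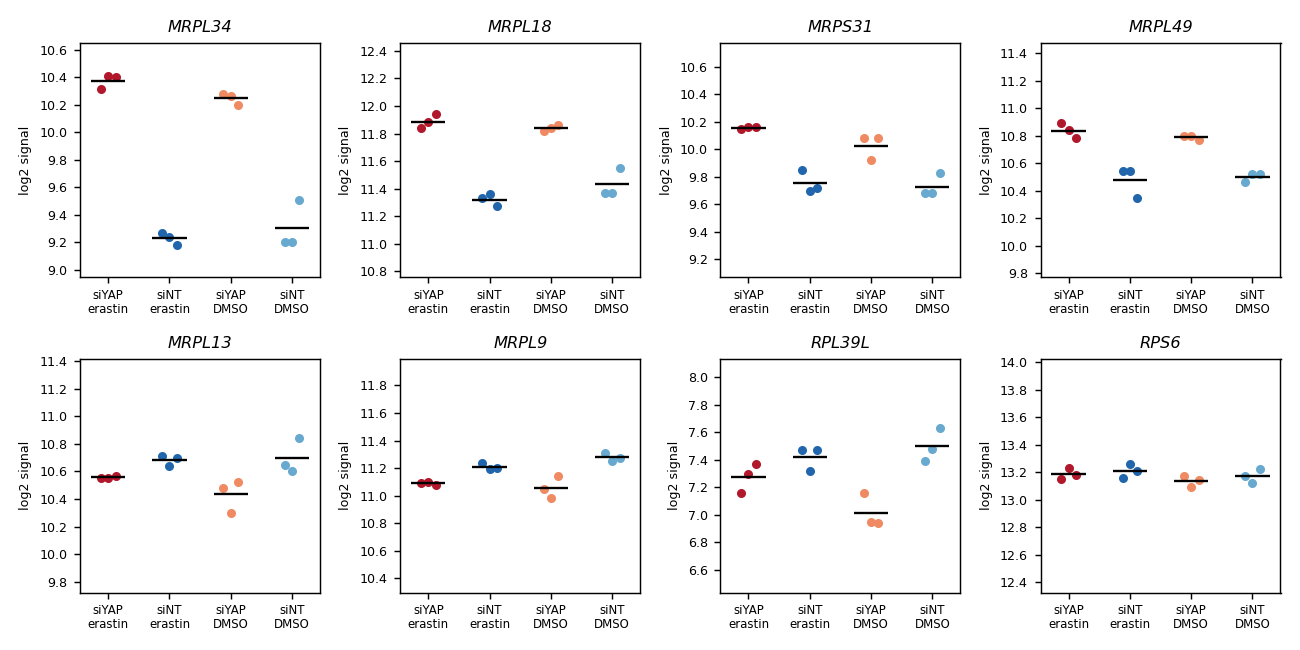
Log2 signal of 8 members on each of the 12 arrays (points), with group means (bars), in the order siYAP erastin, siNT erastin, siYAP DMSO and siNT DMSO; every panel spans the same number of log2 units but does not start at 0. MRPL34, MRPL18, MRPS31 and MRPL49 were higher on every silenced array, MRPL13, MRPL9 and RPL39L were lower in siYAP DMSO without overlap, and RPS6 overlapped in all groups.

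MRPS14, the homologue of bacterial S14 in the small subunit head, was the next rise under erastin. It read 10.66, 10.70 and 10.70 in siYAP erastin, against 10.32, 10.37 and 10.41 in siNT erastin, with no overlap (0.32, limma adjusted p = 0.000445). That call rests on the probe set: averaging the gene's probe sets gave 0.11 (adjusted p = 0.191), and its probe set without a suffix for shared probes gave -0.10 (adjusted p = 0.402). In DMSO it changed by 0.19 (limma adjusted p = 0.0136). The large-subunit proteins MRPL28 and MRPL42 rose in both comparisons as well: 0.24 under erastin and 0.15 in DMSO for MRPL28 (limma adjusted p = 0.00328 and 0.049), and 0.26 and 0.17 for MRPL42 (limma adjusted p = 0.00337 and 0.0345). They were named after their values were seen, to complete the genes higher in both.

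Those 7 genes, MRPS14 with the limit just given, made up 87.5% of the 8 members that rose in DMSO and 43.8% of the 16 that rose under erastin. The same overlap over all genes was not computed, so these shares are not shown to be particular to the members. No mitochondrial member fell in both comparisons and none was called in opposite directions. The silencing comparisons share no array, and each of the 7 genes had a larger value under erastin. Across the 51 mitochondrial genes the changes in both comparisons had a Pearson r of 0.809 and a Spearman rho of 0.638. Across the 57 cytosolic genes these were 0.737 and 0.754. Genes are not independent replicates, and MRPL34 and RPL39L lie far from the other points.

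**Figure D4:**
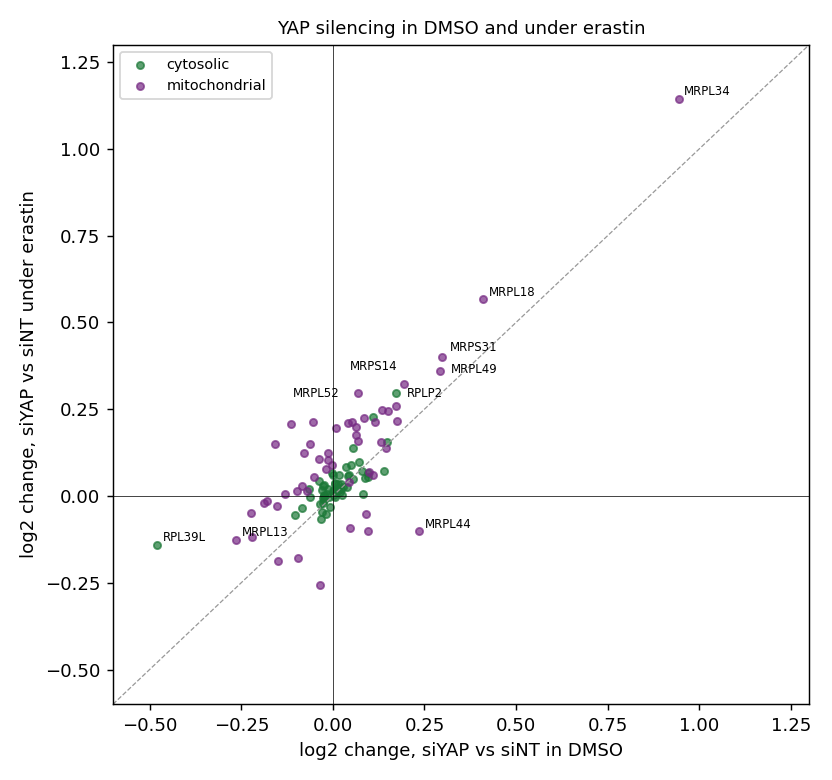
Log2 change for siYAP against siNT in DMSO (horizontal axis) and under erastin (vertical axis) for the 57 cytosolic (green) and 51 mitochondrial (purple) members; the dashed line marks equal change. MRPL34 stands at 0.94 and 1.14 and RPL39L at -0.48 and -0.14, while most cytosolic members lie near 0 on both axes.

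MRPL44 completes the 8 rises in DMSO. It carries a ribonuclease III-like fold and is mutated in a human cardiomyopathy. Its values were 7.58, 7.87 and 7.67 in siYAP DMSO, against 7.56, 7.48 and 7.38 in siNT DMSO, without overlap (0.24, limma adjusted p = 0.0434). Under erastin it had 7.48, 7.28 and 7.33 in siYAP, against 7.49, 7.38 and 7.52 in siNT, with overlapping groups (-0.10, limma adjusted p = 0.403). The difference between both silencing effects was -0.34 and did not pass its own test (limma adjusted p = 0.435). The call in DMSO was lost without siYAP DMSO replicate 2, the highest array (0.16, limma adjusted p = 0.184), and without siNT DMSO replicate 2 or 3, siYAP DMSO replicate 3, siNT erastin replicate 1 or siYAP erastin replicate 3 (adjusted p = 0.0554 to 0.144). It was also lost with the replicate block (adjusted p = 0.0689) and in a fit of only the 6 arrays compared (adjusted p = 0.0611).

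Falls were few and small. In DMSO the conserved large-subunit proteins MRPL13, MRPL2 and MRPL9 fell. MRPL13 read 10.48, 10.30 and 10.52 in siYAP DMSO, against 10.65, 10.60 and 10.84 in siNT DMSO, without overlap (-0.26, limma adjusted p = 0.0131). MRPL9 read 11.05, 10.98 and 11.14 in siYAP DMSO, against 11.31, 11.25 and 11.27 in siNT DMSO (-0.22, limma adjusted p = 0.00506), also without overlap. MRPL2 changed by -0.22 in DMSO (limma adjusted p = 0.0254). The call of MRPL13 was lost without siNT DMSO replicate 3 or siYAP DMSO replicate 2 (adjusted p = 0.0524 and 0.0606), and that of MRPL2 without siNT DMSO replicate 1 or 3 or siYAP DMSO replicate 1 or 2 (adjusted p = 0.0515 to 0.103). The call of MRPL2 was also lost with quantile normalization (adjusted p = 0.0583) and in a fit of only the 6 arrays compared (adjusted p = 0.0505). Under erastin MRPL13 changed by -0.13 and MRPL9 by -0.12 (limma adjusted p = 0.219 and 0.0993).

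MRPS2 and MRPL3 fell under erastin. MRPS2, the homologue of bacterial S2, read 9.44, 9.29 and 9.33 in siYAP erastin, against 9.52, 9.63 and 9.66 in siNT erastin (-0.26, limma adjusted p = 0.0208). MRPL3, of the peptidyl transferase region, read 12.02, 12.04 and 12.01 in siYAP erastin, against 12.20, 12.29 and 12.14 in siNT erastin (-0.19, limma adjusted p = 0.0175). Neither gene's groups overlapped. The call of MRPS2 was lost without siNT erastin replicate 2 or 3 or siYAP erastin replicate 2 or 3 (adjusted p = 0.0547 to 0.0792), and that of MRPL3 without siNT erastin replicate 2 or siYAP erastin replicate 1 or 3 (adjusted p = 0.0533 to 0.0722). In DMSO MRPL3 changed by -0.15 (limma adjusted p = 0.0524).

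Members of the functional centres were followed in any case. MRPL12, the stalk protein that recruits translation factors, read 9.89, 9.91 and 9.88 in siYAP erastin, against 9.64, 9.68 and 9.62 in siNT erastin, without overlap (0.25, limma adjusted p = 0.0164). In DMSO its value was 0.13 (limma adjusted p = 0.188), with siNT DMSO replicate 3 at 9.92 above 9.68 and 9.61. Without that array the DMSO change was 0.23 (limma adjusted p = 0.00656), and without siNT DMSO replicate 2 it was 0.07 (limma adjusted p = 0.552). Without siYAP erastin replicate 2 the erastin call was lost (adjusted p = 0.0502). MRPS12, of the decoding centre, gave 0.21 under erastin and 0.18 in DMSO (limma adjusted p = 0.0725 and 0.145). Without siNT DMSO replicate 3 both passed (adjusted p = 0.016 and 0.00711). The erastin value of MRPS12 also passed with averaged probe sets and with a trended and robust variance (limma adjusted p = 0.0261 and 0.0215). A fit of only the 6 arrays compared gave a call as well (limma adjusted p = 0.0473). DAP3, a small-subunit protein that the symbol rule leaves out, changed by -0.11 under erastin and -0.02 in DMSO, neither passing the test.

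The remaining rises under erastin lay between 0.17 and 0.30 on the log2 scale. They were MRPL52, MRPL57, MRPS22, MRPS28, MRPL20, MRPL48, MRPS17 and MRPL15, listed here so that all 16 can be counted. Each had siYAP erastin arrays above all siNT erastin arrays. Of the 51 members 33 had groups without overlap in that comparison, against 45.0% of all genes, and 21 in the DMSO comparison, against 45.4% of all genes. These counts run in either direction and include members that did not pass the test.

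Erastin itself changed no ribosomal protein gene past the threshold. In siNT cells 0 of 57 cytosolic and 0 of 51 mitochondrial members passed, against 0.752% of all genes for erastin against DMSO. At an unadjusted p under 0.05 there were 0 and 4 members, against 10.6% of all genes. In siYAP cells the counts were again 0 and 0, against 0.334% of all genes, with 1 and 5 at an unadjusted p under 0.05, against 10.7% of all genes. With so few calls over the whole array, 0 of 108 members is close to the background.

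After erastin the mitochondrial values were mostly positive in siYAP cells and mostly negative in siNT cells. In siYAP cells 41 of 51 had a positive value with a median of 0.07, and in siNT cells 13 of 51 with a median of -0.03, against medians of 0.00 over all genes in both. Among MRPL genes 27 of 31 were positive in siYAP cells and 3 of 31 in siNT cells. Without siNT DMSO replicate 3 the median in siNT cells was 0.02, so its sign rested on that array. It was -0.007 without siNT erastin replicate 3 and -0.062 to -0.047 without any 1 of the other siNT arrays. These comparisons share their arrays with the silencing comparisons and add no separate evidence.

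The interaction, the silencing effect under erastin minus that in DMSO, was called for 0.0% of the 11963 genes, with 1179 (9.86%) at an unadjusted p under 0.05. Its median was 0.11 over the mitochondrial members (0.053 without siNT DMSO replicate 3), 40 of 51 being positive, 0.02 over the cytosolic members and 0.01 over all genes. Of the members 4 mitochondrial and 1 cytosolic had an unadjusted p under 0.05. Mitochondrial members are therefore not shown to respond differently to silencing in the 2 conditions, and the values ran from -0.34 to 0.32.

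Genes with several probe sets did not always give 1 answer. The genes in this paragraph were chosen after their values were seen, and adjusted p-values come from limma's fit over all probe sets. The 23 cytosolic members with further probe sets had 38 of them, of which 6 from 5 genes were called in DMSO and 5 from 4 genes under erastin, all where the probe set used above was not. Over all 19065 probe sets of that fit 29.4% were called in DMSO and 30.8% under erastin. For RPL22, a large-subunit protein and tumour suppressor, 4 probe sets lay between -0.08 and 0.02 in both comparisons, while the fifth gave 0.445 under erastin and 0.617 in DMSO (adjusted p = 0.000125 and 7.86e-06). For RPS28 the brightest gave 0.07 under erastin and 0.10 in DMSO, the second -0.67 and -0.79, and the third -0.38 and -0.43. The second probe set of RPL31 gave -0.36 under erastin and -0.35 in DMSO, and that of RPS21 -0.22 and -0.29. Which transcripts each probe set reads was not given, and 16 cytosolic probe sets carry the suffix x and 27 the suffix s, for probes that can match more than 1 transcript or gene.

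Mitochondrial members behaved alike in part. Their 13 further probe sets from 10 genes gave 6 calls under erastin and 3 in DMSO, against the same 30.8% and 29.4% of all probe sets. MRPS31 rose on its second probe set under erastin too (0.49, adjusted p = 0.00176) and gave 0.27 in DMSO (adjusted p = 0.0584). The second probe set of MRPL9 was lower in both comparisons (-0.24 and -0.25, adjusted p = 0.00822 and 0.00742). For MRPS12 the second and the third probe set rose under erastin (0.39 and 0.28, adjusted p = 0.0235 and 0.0205). MRPS14 gave opposite calls in DMSO, 0.195 on the brighter probe set and -0.25 on the dimmer (adjusted p = 0.0199 and 0.0405). MRPS30, which despite its symbol sits in the large subunit, gave 0.34 in both comparisons on its dimmer probe set and -0.09 under erastin and 0.05 in DMSO on the brighter.

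**Figure D5:**
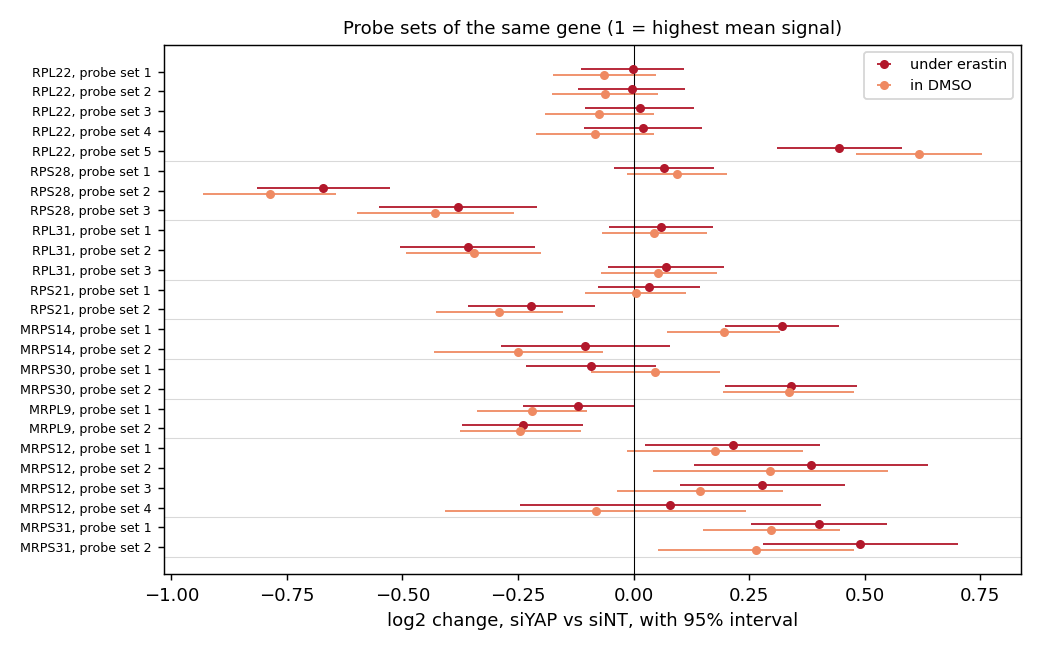
Log2 change for siYAP against siNT under erastin (dark red) and in DMSO (orange) for each single-gene probe set of 9 members, numbered by falling mean signal, with 95% intervals as bars. Probe sets of MRPL9, MRPS12 and MRPS31 lie mostly on 1 side of 0, whereas those of RPL22, RPS28, RPL31, RPS21, MRPS14 and MRPS30 split, as in RPL22 at -0.06 and 0.617 in DMSO.

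Genes of the wider translation machinery were counted in the same fit, against 34.9% of all genes called under erastin and 33.7% in DMSO. Of 45 ribosome biogenesis genes 13 rose and 6 fell in siYAP under erastin (42.2%), and 7 rose and 6 fell in DMSO (28.9%), with medians of 0.02 and -0.02. HEATR1, needed for ribosomal RNA transcription and processing, rose by 1.02 under erastin and 0.98 in DMSO (limma adjusted p = 2.08e-07 and 2.51e-07). TAF1D, of the RNA polymerase I initiation factor SL1, rose by 0.59 under erastin and 0.48 in DMSO, and POLR1G, a polymerase I subunit, by 0.58 under erastin and 0.31 in DMSO. RRS1, which helps to place the 5S particle, fell by 0.46 in both.

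Of 40 cytosolic translation factors 3 rose and 12 fell under erastin (37.5%), and 3 rose and 6 fell in DMSO (22.5%), with medians of -0.07 and -0.02. Among all genes 34.9% were called under erastin and 33.7% in DMSO. EIF4G2, which drives cap-independent initiation, changed by -0.99 under erastin and -0.88 in DMSO, and EIF4H, a helper of the EIF4A helicase, by -0.97 and -0.94. EIF2S3, a subunit of the factor that brings initiator tRNA, changed by -0.82 under erastin (limma adjusted p = 0.00868) and -0.10 in DMSO (limma adjusted p = 0.795). Its SD was 0.40 in siNT erastin and 0.42 in siYAP DMSO. Leaving out 1 array moved the erastin value between -1.008 and -0.613. EIF2S3 did not pass the interaction test, so its silencing effects are not shown to differ. ABCE1, which recycles ribosomes, rose by 0.42 under erastin and 0.44 in DMSO.

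Of 23 other mitochondrial translation and ribosome assembly genes 2 rose and 4 fell under erastin (26.1%), and 4 rose and 4 fell in DMSO (34.8%). The medians were -0.01 and -0.02, and the shares over all genes were 34.9% and 33.7%. TFB1M, which methylates the small ribosomal RNA of mitochondria, changed by -0.45 under erastin and -0.61 in DMSO. MTERF3, a factor of large-subunit assembly in mouse, changed by -0.44 and -0.43, and LRPPRC, which stabilises mitochondrial messages, by -0.36 under erastin and -0.23 in DMSO. OXA1L, which inserts nascent proteins into the inner membrane, rose by 0.45 in DMSO and had 0.02 under erastin (limma adjusted p = 0.00204 and 0.886). OXA1L did not pass the interaction test either.

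Of 20 regulators of ribosomal protein expression 6 rose and 5 fell under erastin, and 7 rose and 4 fell in DMSO, with medians of 0.06 and 0.02. The share called was 55.0% in both comparisons, against 34.9% of all genes under erastin and 33.7% in DMSO. NRF1, an activator of nuclear genes for mitochondrial proteins, changed by -0.39 under erastin and -0.65 in DMSO, and its coactivator partner PPARGC1A by 0.63 in both. GABPB1, a subunit of the ETS complex whose core motif was searched above, rose by 0.58 under erastin and 0.43 in DMSO. By averaging its probe sets, however, the erastin value was 0.03 (limma adjusted p = 0.752). GABPA, named with that motif above, had lower means in siYAP than in siNT. They were 4.97 against 5.47 under erastin and 5.22 against 5.42 in DMSO, all below the array medians. EIF4EBP2 changed by -0.53 under erastin and -0.57 in DMSO. EIF4EBP1, the cap-binding repressor under mTORC1, changed with silencing by -0.32 under erastin and -0.58 in DMSO. In siYAP cells it was higher after erastin than in DMSO by 0.45 (limma adjusted p = 0.0296), the only called gene of these 4 lists in either erastin comparison. That call was lost without any 1 of the 6 siYAP arrays (adjusted p = 0.0593 to 0.163) and without siNT DMSO or siNT erastin replicate 1 (adjusted p = 0.0566 each). It was also lost with the replicate block (adjusted p = 0.0699) and with each array centred on its median (adjusted p = 0.0549).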

How the data were processed

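Gene expression was measured on 12 one-colour Affymetrix arrays of RCC4 cells, 3 in each of 4 groups. The deposited table holds log2 values; the authors used Expression Console (Affymetrix) with the RMA method, as the submitters' processing notes list without versions. RMA removes background signal and makes the arrays' distributions equal. The table has 22277 probe sets, 62 of them controls, with values from 2.02 to 14.4 and array medians from 6.49 to 6.52. Of the probe sets, 19065 carry 1 gene symbol in the platform annotation, 1043 several and 2107 none. Per gene the single-symbol probe set with the highest mean was kept, 11963 genes in all, 4310 of them with more than 1. Within groups, arrays correlated with each other at 0.9962 to 0.9987.

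Limma 3.58.1 in R 4.3.3 (lmFit and eBayes, 1 mean per group, all 12 arrays) tested 5 comparisons, with Benjamini-Hochberg adjustment over all genes and a call at 0.05. The code of the fit was tried on simulated data with known changes in a small share of genes. That run does not show how reliable the small changes above are. No batch was tested, since the sources used here name neither the array type nor a scan date, and the number of arrays limits the precision. Whether the replicates came from separate cultures on separate days is not stated beyond their being biological triplicates.

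The symbol rule fits 86 cytosolic and 77 mitochondrial protein-coding genes of the RefSeq table. Of the cytosolic genes that are not members, 16 are on probe sets that also list other genes, 13 of these with a small nucleolar RNA, and 13 have no listed probe set, as have 26 mitochondrial genes. Named were YAP1, RPS6, RPL22, RPS4X, MRPL12, MRPS12 and DAP3, up to 5 called rises and 5 called falls per set and comparison, and up to 3 called genes per other list; RPLP0 and RPL22L1, on the same rule, had no single-symbol probe set. Members, lists and rules were chosen with earlier results of these data known. Alternatives were other scalings, filters, probe set choices, variance models, a replicate block and leaving out each array.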

Additional observations from a re-analysis of the deposited data

Results flagged for a closer look

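MRPL48, a protein of the mitochondrial large subunit, is listed because its silenced arrays lay above all controls under erastin and below all controls in DMSO, although only the erastin difference passed the test. Its log2 signal was 9.30, 9.32 and 9.34 in siYAP erastin, against 9.10, 9.22 and 9.01 in siNT erastin, all silenced arrays above all controls (0.21, limma adjusted p = 0.0205). In DMSO it was 9.17, 9.14 and 9.12 in siYAP, against 9.22, 9.20 and 9.35 in siNT, all silenced arrays below all controls (-0.11, limma adjusted p = 0.198). The difference between both effects was 0.32 ± 0.09 (SE) on the log2 scale and did not pass the interaction test over all genes (limma adjusted p = 0.422).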

How the results depend on the processing

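Values below are numbers of called genes unless stated otherwise. For the cytosolic set the DMSO silencing count of 1 became 2 with quantile normalization and 2 after removing the dimmest 30% of probe sets. It became 3 when probe sets of a gene were averaged and 3 with a trended and robust variance. Preferring probe sets free of the x and s suffixes gave 4. That preference left genes with only x or s probe sets as they were. The silencing count of 0 under erastin became 2, 2, 3 and 4 with quantile normalization, averaged probe sets, the suffix preference and trended variance. It became 1 with genes of several-symbol probe sets added, an alternative chosen after seeing the data. The cause was not tested in any of these. Leaving out 1 array gave 1 to 3 (3 without siNT DMSO replicate 3, 2 without siNT erastin replicate 3) and 0 to 1 (1 without siNT erastin replicate 2). For the mitochondrial set it gave 6 to 13 in DMSO, against 11, and 9 to 22 under erastin, against 18. The counts for erastin against DMSO, in siYAP and in siNT cells, and for the interaction stayed at 0 in both sets under every alternative run. Suffix-free probe sets turned MRPS14 under erastin to -0.10 (log2), and RPL22 to 0.445 under erastin and 0.617 in DMSO, since they read another probe set of the gene. A further limit is that near-identical copies can share probes.

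Same-numbered arrays of different groups did not deviate together more than differently numbered ones. Their correlations of deviations ran from -0.417 to 0.19 (median -0.02), against -0.22 to 0.343 (median 0.019) for arrays with different numbers. With so few arrays per group, these correlations cannot show whether the numbers pair the samples. With the replicate block the mitochondrial counts were 17 under erastin and 9 in DMSO, the cytosolic counts 0 and 1, and the counts for erastin against DMSO and the interaction 0.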

Other observations

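Ribosomal protein genes read only by probe sets that list several symbols were left out above because the label is not unique. Of the 16 such cytosolic genes, 12 had a probe set whose other symbols were all small nucleolar RNAs or microRNAs, and each was read from its brightest probe set of that kind. Of these, 0 rose and 1 fell with YAP silencing under erastin, against 34.9% of all genes called, and 0 passed in DMSO, against 33.7%. Their median log2 changes were 0.00 under erastin and 0.02 in DMSO, and the values ran from -0.13 to 0.06 and from -0.04 to 0.09.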
